A study of Mus musculus with 14 samples.

Results

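The IL-6 family comprises cytokines that signal through the shared receptor chain gp130, encoded by Il6st. Of its genes, 10 were followed here, the 5 ligand genes Il6, Il11, Osm, Lif and Clcf1 and the 5 receptor genes Il6ra, Il6st, Osmr, Lifr and Il11ra1, out of 55357 genes in the files. They were chosen by gene symbol, each symbol matched 1 row of every file, and all 10 passed the filter on low counts. The samples were livers of C57BL/6 male mice, 5 to 6 weeks old before a week of acclimatisation. In the model group (8 libraries) the mice had received LPS (lipopolysaccharide, from the outer membrane of bacteria) at 10 µg/kg and D-GalN (D-galactosamine, an amino sugar that injures hepatocytes) at 300 mg/kg, both intraperitoneally, as a model of acute liver failure. In the control group (6 libraries) they had received normal saline, and all livers were taken 24 h after injection. Both agents were given to every model mouse, so the part of each cannot be told apart, and only this time was sampled. The labels do not say that each library is a separate animal, so the p-values cover the spread among these libraries, which may in part be technical.

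All these cytokines act through gp130, and what differs is the chain that accompanies it. IL-6 and IL-11 first bind their own non-signalling receptor, IL-6 receptor alpha (Il6ra) or IL-11 receptor alpha (Il11ra1), while LIF, CLCF1 and oncostatin M (Osm) use gp130 paired with the LIF receptor (Lifr) or the oncostatin M receptor (Osmr), and CLCF1 also needs the CNTF receptor alpha chain (Cntfr). The receptors activate JAK kinases and the transcription factor STAT3, and SOCS3 ends the signal. In the liver, IL-6 is known as the main inducer of acute phase proteins in hepatocytes, and the family is known for roles in liver regeneration.

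The libraries held between 7914120 and 16639972 counts in genes. The summed level of 8 hepatocyte markers was 35900 to 65100 CPM (counts per 1000000 counts in genes, scaled) in control and 60070 to 83210 CPM in model libraries, and 2 of the 8, Alb and Tat, were called higher. All sums in this paragraph are weighted to the abundant genes of a list. Alb alone went from a mean of 29439 CPM in control to 52287 CPM in model. Lyz2 weighs most among the monocyte markers and Dcn among the stellate cell markers. In the endothelium list Lyve1 rose from 4.77 to 120 CPM and Clec4g fell from 86.1 to 24.8 CPM. Of 8 neutrophil markers, 7 were tested and all 7 rose, and their summed level went from 3.852 to 16.3 CPM in controls to 1174 to 2775 CPM in model libraries, with Ly6g at 0 in every control. Of 8 monocyte and macrophage markers, 7 rose (157.9 to 343.7 CPM in control, 379.2 to 629.4 CPM in model). Of 8 T and NK cell markers, 5 of the 6 tested rose (2.548 to 5.692 CPM and 5.842 to 14.49 CPM), and of 6 cholangiocyte and mesothelium markers, 5 rose (2.637 to 9.029 CPM and 30.44 to 72.89 CPM). Of 7 stellate cell and fibroblast markers, 5 rose and 1 fell (142.1 to 198.1 CPM and 325.0 to 638.5 CPM). The Kupffer cell list had 2 of 6 higher and 3 lower (181.9 to 266.9 CPM and 185.5 to 409.0 CPM), and the sinusoidal endothelium list 3 of 7 higher and 1 lower (118.9 to 193.2 CPM and 201.0 to 387.4 CPM). Beside these counts, 26.6% of all genes tested were called higher and 21.3% lower. The 2 of 8 hepatocyte and 2 of 6 Kupffer cell markers called higher are near that share. In whole liver RNA, more cells of a type and more RNA per cell cannot be told apart, and the part of these cells in the values below was not tested.

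All 5 ligand genes rose in the model livers, from at or near 0. Osm and Lif had no count in any control, Il6 and Il11 had 5 counts each over the 6 controls, and only Clcf1 was detected in every control. Of the 5 receptor genes, Il6st and Osmr rose, Il11ra1 fell, and Il6ra and Lifr did not pass the test. Over the whole table, 26.6% of the 12915 genes tested were called higher and 21.3% lower, so a count of 7 higher and 1 lower among 10 members stands beside a background of 47.9% called in either direction. Genes were called at an adjusted p under 0.05 by edgeR's quasi-likelihood test with Benjamini-Hochberg adjustment over all genes tested. For 6 members the model range lay wholly above the control range. Of all genes tested, 23.2% had ranges without overlap, 14.6% with model higher and 8.63% with model lower. Il6, Il11, Osm and Lif are among the 7 called higher and among these 6 members. With so few control counts, they passed the filter on low counts only through the model libraries. Such a gene could hardly be tested unless it was higher in model, so these calls and ranges are not independent of the filter.

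**Figure D1:**
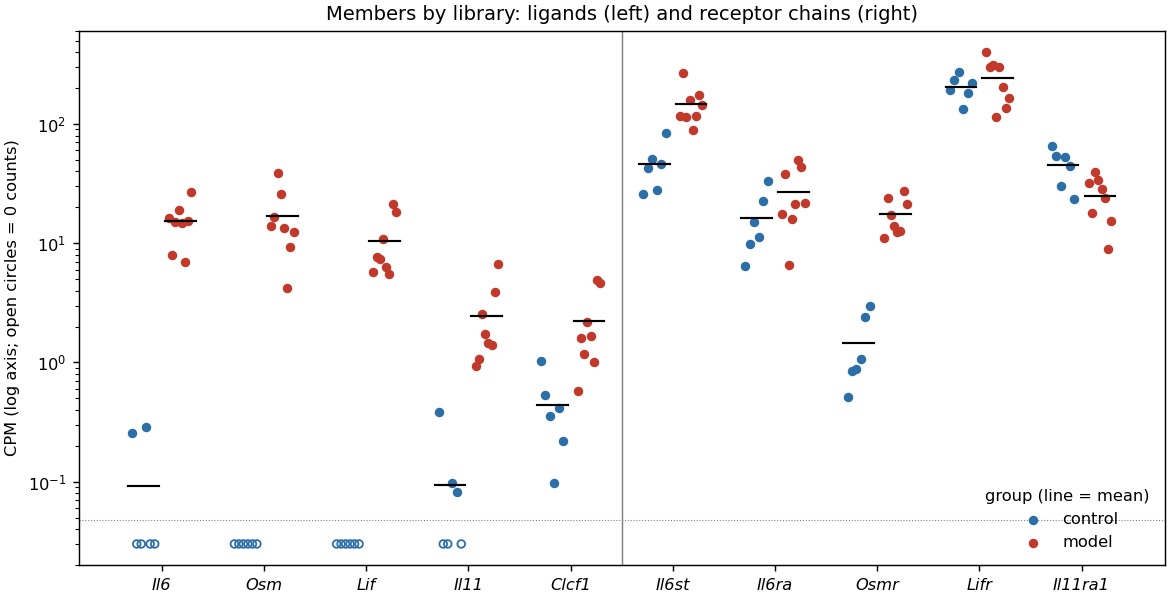
Level of each member in each library, in CPM on a log axis, with 6 control (blue) and 8 model (red) libraries and the group mean as a line. Open circles below the dotted line are libraries with 0 counts. Osm and Lif have open circles for all 6 controls, and the groups overlap for Clcf1, Il6ra, Lifr and Il11ra1.

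Il6 (ENSMUSG00000025746.12), the cytokine that gives the family its name, is known to be made by activated macrophages, endothelium and stroma. In the model livers its lowest, median and highest levels were 6.97, 15.3 and 26.8 CPM. Of the controls, 4 of 6 had no count and the highest was at 0.289 CPM. Every model library lay above every control. Its mean went from 0.0911 ± 0.141 CPM (SD, n = 6) to 15.3 ± 6.21 CPM (SD, n = 8), a log2 fold change of 7.58 (SE 0.62, adjusted p = 2.05e-08, edgeR). The control mean rests on controls 1 and 4, and without control 4 the log2 fold change was 8.50.

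Osm (ENSMUSG00000058755.4) encodes oncostatin M, a product of neutrophils, macrophages and T cells. It ranged from 4.23 to 38.8 CPM in the model livers, with a median of 13.6 CPM, and had 0 counts in all 6 controls. A floor of 3 counts over the control group is 0.0401 CPM. The Osm mean of 16.8 ± 10.8 CPM (SD, n = 8) was 420.3 times that floor, a lower bound for its rise over control (adjusted p = 7.36e-07, edgeR). This floor covers counting error only. The spread within the model group was 9.175-fold from lowest to highest, the widest of the 10 members: model 3 and model 4 were at 38.8 and 26.0 CPM, and model 6 was at 4.23 CPM.

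Lif (ENSMUSG00000034394.15), leukaemia inhibitory factor, also had 0 counts in all controls. Its model libraries were at 5.48 CPM at the lowest, 7.52 CPM at the median and 21.5 CPM at the highest. The mean of 10.4 ± 6.17 CPM (SD, n = 8) was 259.6 times the same floor, a lower bound for its rise over control (adjusted p = 4.48e-07, edgeR). Model 7 and model 8 stood apart at 21.5 and 18.4 CPM, while the other 6 lay between 5.48 and 10.8 CPM.

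Il11 (ENSMUSG00000004371.16), a stromal cytokine of the family, was lower in level. It ranged from 0.926 to 6.69 CPM in model (median 1.60 CPM) and from 0 to 0.385 CPM in control, where 3 libraries had no count, without overlap. Its mean was 2.47 ± 1.96 CPM (SD, n = 8) against 0.0940 ± 0.149 CPM (SD, n = 6), with a log2 fold change of 4.96 (SE 0.75, adjusted p = 3.34e-05, edgeR). Without control 1, which held 3 of the 5 control counts, the log2 fold change was 5.96. The highest levels were again in model 7 and model 8, at 3.93 and 6.69 CPM. With these 2 libraries left out, or model 3 and model 4, Il11 did not pass the filter on low counts and was not tested.

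Clcf1 (ENSMUSG00000040663.10), cardiotrophin-like cytokine factor 1, showed the smallest rise of the ligands. The model libraries were at 0.579 to 4.95 CPM (median 1.63 CPM) and the controls at 0.0965 to 1.03 CPM (median 0.384 CPM), so the groups overlap. The log2 fold change was 2.44 (SE 0.54, adjusted p = 0.00131, edgeR), and 1.80 without model 7 and model 8, which were at 4.95 and 4.62 CPM. In the annotation supplied, Clcf1 shares 311 exonic bases with a predicted coding gene on the same strand, and reads from that stretch cannot be assigned.

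Levels can be compared between genes only per length, here as CPM per kilobase of exon. The exonic length is the union of all annotated exons of a gene, which may differ from the length of the transcripts expressed. On that scale Osm (7.41 ± 4.77, SD, n = 8) and Il6 (6.29 ± 2.56) led in the model livers, followed by Lif (2.39 ± 1.42), Il11 (1.19 ± 0.944) and Clcf1 (0.584 ± 0.434). Osm was above Il6 in only 3 of 8 libraries, so the order of the leading pair does not hold across the group. Each of the lower steps, Il6 above Lif, Lif above Il11 and Il11 above Clcf1, held in 8 of 8 libraries. Osm led in model 2, 3 and 4 and reached 64.5% of the summed level of the 5 ligands in model 3. Il6 led in model 1, 5, 6, 7 and 8, with 45.5% of the sum in model 1 and 43.8% in model 8. The lead was narrow in model 1, with Osm at 41.4%, and in model 5, with Il6 at 41.7% and Osm at 40.4%. Lif held 26.6% in model 7, where it was above Osm at 22.0%, and 6.38% in model 3.

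**Figure D2:**
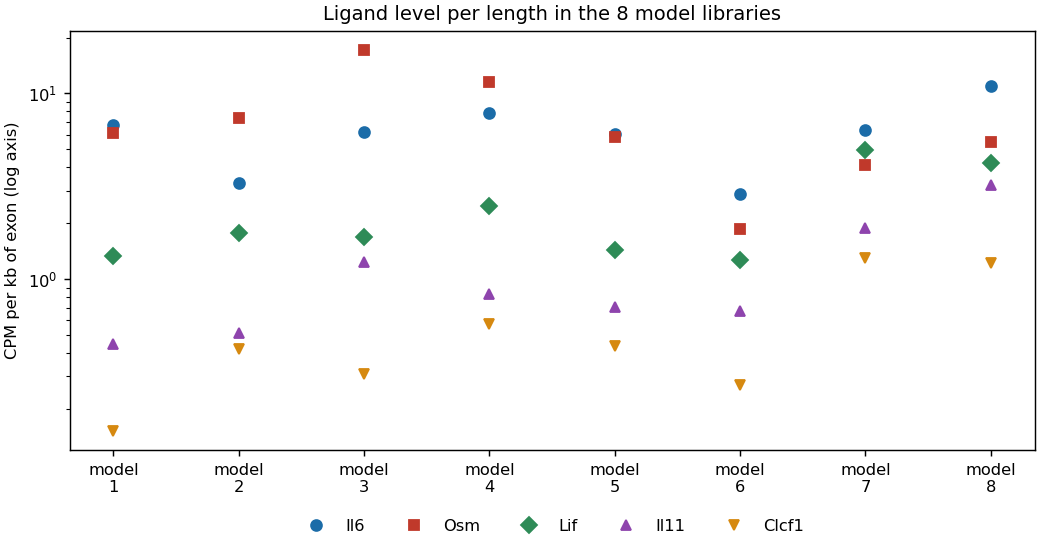
Level of the 5 ligands in each of the 8 model libraries, in CPM per kilobase of exon on a log axis. Osm is the highest point in model 2, 3 and 4 and Il6 in the other 5 libraries, while Lif, Il11 and Clcf1 keep that order below Il6 in all 8.

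The promoter sequences of the members, ligands and receptors alike, were also searched where available. The RefSeq promoter table (build GRCm38.p6, not the alignment build GRCm39) held 8 of the 10 members, all but Osm and Clcf1. The 250 bases before each start were searched on both strands for 6 motifs: NF-kB (GGGNNTTTCC), STAT (TTCNNNGAA), AP-1 (TGANTCA), CRE (TGACGTCA), C/EBP (TTGCNNAA) and the TATA box (TATAAA). These motifs were chosen with earlier results of these data known. They occur in 1.41%, 7.02%, 6.75%, 1.55%, 9.56% and 12.4% of all 32851 promoter windows of that length, and none of the matches below overlap. At least 1 motif was found in 32.5% of all windows and in 3 of the members' 11 windows (27.3%), a share near the background. These 3 windows, of Il6, Il11 and Lif, are printed to show the matches in ligand genes that rose, with each match in capitals.
Il6 (chr5:30012864-30013113, plus strand): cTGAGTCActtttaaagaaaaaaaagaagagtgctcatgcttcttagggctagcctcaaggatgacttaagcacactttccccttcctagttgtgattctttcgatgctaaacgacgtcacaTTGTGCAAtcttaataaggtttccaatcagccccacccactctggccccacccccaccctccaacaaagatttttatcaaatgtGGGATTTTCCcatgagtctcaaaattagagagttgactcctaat
Il11 (chr7:4778142-4778391, minus strand): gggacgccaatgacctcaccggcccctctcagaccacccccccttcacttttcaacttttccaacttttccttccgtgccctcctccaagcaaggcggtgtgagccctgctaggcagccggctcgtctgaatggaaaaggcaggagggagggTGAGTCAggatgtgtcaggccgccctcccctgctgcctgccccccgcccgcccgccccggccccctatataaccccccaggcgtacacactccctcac
Lif (chr11:4257318-4257567, plus strand): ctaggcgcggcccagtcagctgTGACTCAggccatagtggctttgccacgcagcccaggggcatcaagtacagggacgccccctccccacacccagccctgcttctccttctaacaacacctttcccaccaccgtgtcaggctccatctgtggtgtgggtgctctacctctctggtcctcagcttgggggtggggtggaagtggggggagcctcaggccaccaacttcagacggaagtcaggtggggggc
The Il6 window holds an AP-1 match that begins 249 bases before the start, a C/EBP match at 128 bases and an NF-kB match, GGGATTTTCC, at 44 bases. The Il11 window of this start holds an AP-1 match at 98 bases, and the table's other Il11 start had no match. The Lif window holds an AP-1 match at 228 bases. A match of letters is a description and does not show that a factor was bound in these livers.

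Among the receptor genes, Il6st (ENSMUSG00000021756.13), the signalling chain shared by the whole family, rose. The model libraries were at 89.4 CPM at the lowest, 130 CPM at the median and 268 CPM at the highest, and the controls at 26.0, 44.4 and 83.6 CPM, without overlap. The log2 fold change was 1.68 (SE 0.29, adjusted p = 0.000148, edgeR), about 3.20-fold. Counts per gene do not separate the membrane form of gp130 from soluble forms.

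Osmr (ENSMUSG00000022146.13), which pairs with gp130 to bind oncostatin M, rose most among the receptors. Its levels were 11.1, 15.6 and 27.5 CPM (lowest, median and highest) in model and 0.514, 0.975 and 2.95 CPM in control. The lowest model library was well above the highest control. The log2 fold change was 3.55 (SE 0.38, adjusted p = 7.15e-07, edgeR), or 11.7-fold, so Osm and its receptor gene were both higher in all 8 model livers than in any control.

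Il6ra (ENSMUSG00000027947.12), the IL-6 binding chain, did not pass the test. It ranged from 6.61 to 49.5 CPM in model (median 21.5 CPM) and from 6.42 to 33.3 CPM in control (median 13.1 CPM). The groups overlap over most of their ranges. The log2 fold change was 0.70 with an approximate 95% interval from -0.12 to 1.52 (adjusted p = 0.177, edgeR), an interval that reaches past a 2-fold rise. Il6ra was called higher without control 6 (log2 fold change 1.08, adjusted p = 0.0417) and without model 3 and model 4 together (0.96, adjusted p = 0.0468). In the annotation supplied it shares 242 exonic bases with an antisense gene, Gm42809.

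Lifr (ENSMUSG00000054263.13), the LIF receptor chain, was the most abundant of the receptor genes in both groups. It ranged from 115 to 405 CPM in model (median 253 CPM) and from 133 to 274 CPM in control (median 207 CPM), and the model range contained the control range. The log2 fold change was 0.23 with an approximate 95% interval from -0.30 to 0.77 (adjusted p = 0.502, edgeR). Its sign turned with library totals as the scale (-0.08), and with an offset for exonic length the adjusted p was 0.992.

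Il11ra1 (ENSMUSG00000073889.11), the IL-11 binding chain, was the only member that fell. The controls were at 23.5 to 65.3 CPM (median 48.6 CPM) and the model libraries at 9.00 to 39.4 CPM (median 26.3 CPM), with overlap. The log2 fold change was -0.85 (SE 0.30, adjusted p = 0.0269, edgeR). The call was lost without control 1, 2 or 4 (adjusted p = 0.0738, 0.0569 and 0.0547) and without model 7 and model 8 together (-0.57, adjusted p = 0.0704), the libraries at 9.00 and 15.4 CPM. Il11ra2, a closely similar gene, held 0 to 0.621 CPM in model and 0 to 0.193 CPM in control, and how reads that fit both genes were counted is not stated in the labels. Il11ra1 also shares 8 exonic bases with Ccl27a on the other strand.

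Exonic length is given beside these values, since the receptor genes are long. Il6ra, Il6st, Osmr and Lifr have 8642, 11099, 12113 and 10776 exonic bases and Il11ra1 has 4471, and when all tested genes were placed in 5 equal bins of exonic length, the bin of shortest genes had a median log2 fold change of -0.227 and that of longest genes 0.279. Within the groups, control 6 and model 7 had the highest level of long against short genes (1.17 and 0.94 on the log2 scale, relative to their group) and control 1 and model 5 the lowest (-0.78 and -0.72). Control 6 was also the highest control for Il6ra, Il6st and Osmr and the lowest for Il11ra1, and control 1 was the reverse for all 4. In the model group, model 7, model 2 (0.62) and model 8 (0.51) were the highest for Osmr and the lowest for Il11ra1. The same did not hold for Il6ra, highest in model 6 (-0.09), or for Il6st, where model 4 (-0.03) was above model 8. With an offset for exonic length the log2 fold changes were 1.39 for Il6st, 3.25 for Osmr, 0.48 for Il6ra and -0.91 for Il11ra1, and the calls were the same.

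The balance between the receptor chains was compared within each library, where no scaling factor enters. Relative to Il6st, Osmr rose 4.06-fold (difference of log2 ratios 2.02), while Lifr fell by 1.57, Il11ra1 by 2.62 and Il6ra by 1.04 on the log2 scale. Relative to Lifr, Osmr rose by 3.59 on the log2 scale, or 12.0-fold. The 5 ratios were tested by exact permutation, two-sided, with 3003 arrangements of the group labels and a smallest attainable p of 0.000333.

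Osmr per Il6st, corrected for length, was 0.0804, 0.113 and 0.143 in model (lowest, median and highest) and 0.0166, 0.0265 and 0.0484 in control, without overlap (exact permutation p = 0.000333, adjusted over the 5 ratios p = 0.000833). Osmr per Lifr was 0.0245 to 0.179 in model and 0.00267 to 0.0120 in control, also without overlap and with the same p-values. The p of 0.000333 is the smallest this test can give. Lifr per Il6st was 0.748 to 3.59 in model and 2.72 to 7.63 in control (exact permutation p = 0.004, adjusted p = 0.005). Per exonic length, Lifr was above Il6st in all 6 controls and in 6 of 8 model libraries, model 4 and model 7 being the exceptions. Model 2 and model 8 were near 1, at 1.17 and 1.18. Il11ra1 per Il6st was 0.127 to 0.850 in model and 0.698 to 6.23 in control (exact permutation p = 0.000999, adjusted p = 0.00167). The part of the length trend in this ratio, between genes of shorter and longer exonic length, was not tested. Il6ra per Il6st was 0.0742 to 0.542 in model and 0.298 to 0.636 in control (exact permutation p = 0.022, adjusted p = 0.022). It no longer passed without control 5 (difference of log2 ratios -0.92, exact permutation, adjusted p = 0.0544) or without model 3 and model 4 (-0.68, adjusted p = 0.0628).

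**Figure D3:**
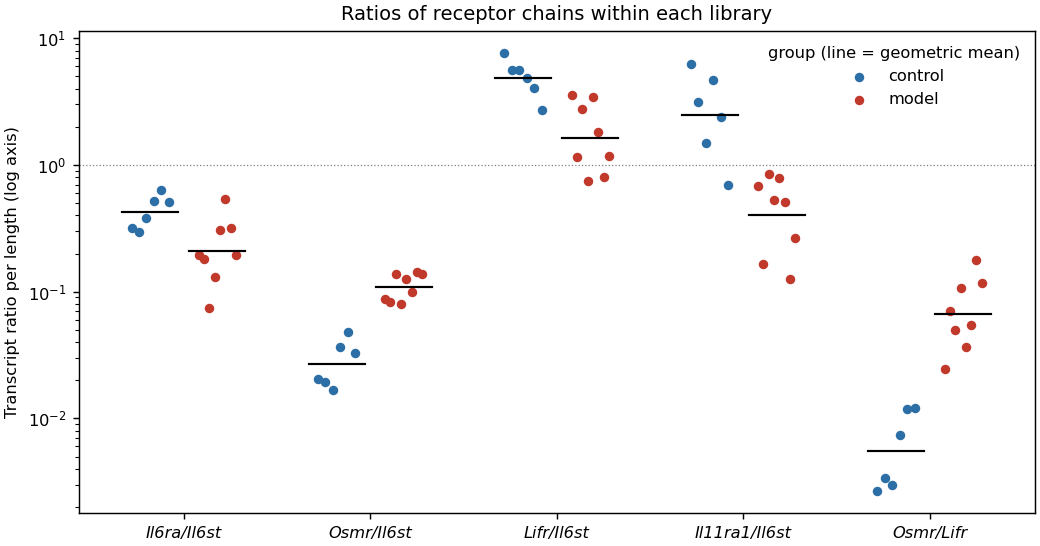
Ratio of 2 receptor transcripts in each library, corrected for exonic length, on a log axis, with 6 control (blue) and 8 model (red) libraries and the geometric mean as a line. The groups do not overlap for Osmr/Il6st and Osmr/Lifr, and overlap for the other 3 ratios.

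As shares of the summed level per length of the 5 receptor genes, Il6st went from 11.6% ± 4.66 (SD, n = 6) in control to 29.8% ± 10.4 (SD, n = 8) in model, and Osmr from 0.340% ± 0.226 to 3.31% ± 1.46. Il11ra1 went from 29.2% ± 11.6 to 12.4% ± 5.35, while Lifr was at 53.5% ± 7.44 and 47.5% ± 12.6. The order in control was Lifr, Il11ra1, Il6st, Il6ra and Osmr. Of its steps, Il11ra1 above Il6st held in 5 of 6 controls and the others in 6 of 6. In model the order was Lifr, Il6st, Il11ra1, Il6ra and Osmr, and the steps held in 6, 8, 5 and 7 of 8 libraries.

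**Figure D4:**
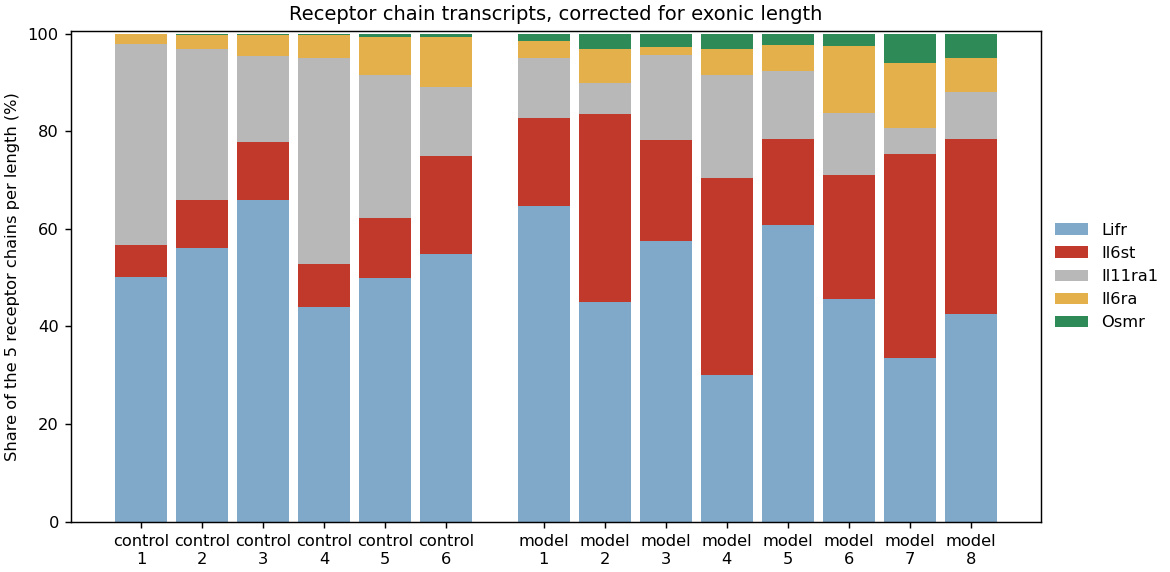
Share of each receptor gene in the summed level of the 5, per exonic length, for 6 control and 8 model libraries. The share of Il6st lies between 6.57% and 20.1% in the controls and between 17.6% and 41.9% in the model libraries, and Osmr is above 1.5% only in model libraries.

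Of the 12 other genes of the family, only 4 passed the filter on low counts. Il27 and Ebi3, the subunits of interleukin 27, and Il27ra, its receptor, rose, and Ctf1, which encodes cardiotrophin 1, fell. The other 8, Cntfr among them, had too few counts to be tested, and Ctf2 had none in any library. Il27 had a single count over the 6 controls and was at 2.31 ± 0.736 CPM (SD, n = 8) in model. Against that count over the pooled control libraries, the ratio was 172.6, with an exact 95% Poisson interval from 30.97 to 6816 that covers counting error only. Ebi3 went from 0.521 ± 0.260 (SD, n = 6) to 10.4 ± 2.17 CPM (SD, n = 8; log2 fold change 4.32, SE 0.30) and Il27ra rose by 2.30 on the log2 scale (SE 0.30), all without overlap between the groups. Ctf1 had a log2 fold change of -0.96 (SE 0.37, adjusted p = 0.0377, edgeR) with overlapping ranges. Leaving out model 4, 6 or 7 or control 1, 2 or 5 ended its call (adjusted p = 0.0510 to 0.0931), as did leaving out model 7 and model 8 together (log2 fold change -0.61, adjusted p = 0.0571). In the annotation supplied, Il27 overlaps Apobr, Ebi3 an antisense gene and Ctf1 overlaps Ctf2, on the other strand.

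Of 12 signal transducers, 6 rose, 1 fell and 5 did not pass, beside 26.6% higher and 21.3% lower among all genes tested. The median log2 fold change was 0.77 against 0.0099 over all genes. Jak2, a kinase bound to gp130, rose most, from 8.88 to 12.1 CPM in control to 42.6 to 84.5 CPM in model, without overlap (log2 fold change 2.47, SE 0.19, adjusted p = 8.98e-09, edgeR). Stat3, the main transcription factor of the pathway, ranged from 56.4 to 293 CPM in model and from 15.5 to 61.3 CPM in control (log2 fold change 1.98, SE 0.43). Stat3 shares 72 exonic bases with Stat5a on the other strand. Jak1, another kinase of the receptor complex, was at 82.0 to 181 CPM in model and 23.0 to 83.0 CPM in control (1.38, SE 0.28). The groups overlap for Stat3 and just touch for Jak1. Sos1, a Ras exchange factor, fell by 0.91 (SE 0.30), a call that ended without control 6 (log2 fold change -0.56, adjusted p = 0.110) and without model 3 and model 4 (-0.73, adjusted p = 0.0649).

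Of 11 genes of feedback inhibition and receptor shedding, 8 rose, 1 fell and 2 did not pass, beside the same shares of all genes, with a median log2 fold change of 2.73. Socs3, which blocks gp130 signalling, was at 133, 191 and 219 CPM in model (lowest, median and highest) and at 1.93, 3.92 and 19.4 CPM in control. The groups were far apart (log2 fold change 4.83, SE 0.47, adjusted p = 1.79e-07, edgeR; 5.57 without control 5). Socs1, an inhibitor of JAK kinases, had 7 counts over the controls and was at 4.97 to 20.5 CPM in model (6.78, SE 0.52; 7.49 without control 3). Rhbdf2, which encodes iRhom2, a partner of the sheddase ADAM17, rose by 4.16 (SE 0.38), and Pias3, an inhibitor of STAT3, fell by 0.65 (SE 0.19). The Pias3 call was lost with no filter on low counts (adjusted p = 0.0525, edgeR). Adam17, known to shed the IL-6 receptor, was among the genes that rose (log2 fold change 2.12, SE 0.26). It shares 311 exonic bases with Iah1 on the other strand.

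Of 32 liver genes known to respond to IL-6, 31 were tested and 25 rose, beside 26.6% of all genes tested, with a median log2 fold change of 1.64. This list, like the others, was chosen with earlier results of these data known, so its count is not independent of them. The number that fell was 0 by edgeR, 0 at an unadjusted p under 0.05 and 0 by DESeq2. By the naming rule the largest changes were in Timp1, an inhibitor of matrix proteases, Lcn2, an iron-binding protein, and Saa3, a serum amyloid. Timp1 had 5 counts over the controls and was at 17.9 to 38.6 CPM in model (log2 fold change 8.50, SE 0.37). Lcn2 ranged from 248 to 4032 CPM in model and from 1.42 to 16.9 CPM in control (8.35, SE 0.90; 9.35 without control 5 and 7.59 without model 7 and model 8), and Saa3 from 263 to 2108 CPM and from 2.90 to 12.3 CPM (7.22, SE 0.63). Among the other acute phase genes, Saa2, another serum amyloid, had a log2 fold change of 5.44 (SE 0.93), Hp, haptoglobin, 1.17 (SE 0.29), and Fga, a fibrinogen chain, 1.23 (SE 0.38), and Hamp, hepcidin, was not called at -0.15 (SE 0.40). The groups overlap for Saa2, Hp, Fga and Hamp alike, with Saa2 at 45.7 CPM in the lowest model library and 187 CPM in the highest control. Saa2, Hp, Fga and Hamp, and Adam17 above, were chosen after their values were seen. Of the 31 genes tested, 13 had a model range wholly above the control range, beside 14.6% of all genes tested. Many of these genes also respond to other cytokines, and Lcn2 is also made by neutrophils, whose markers rose in the same livers.

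**Figure D5:**
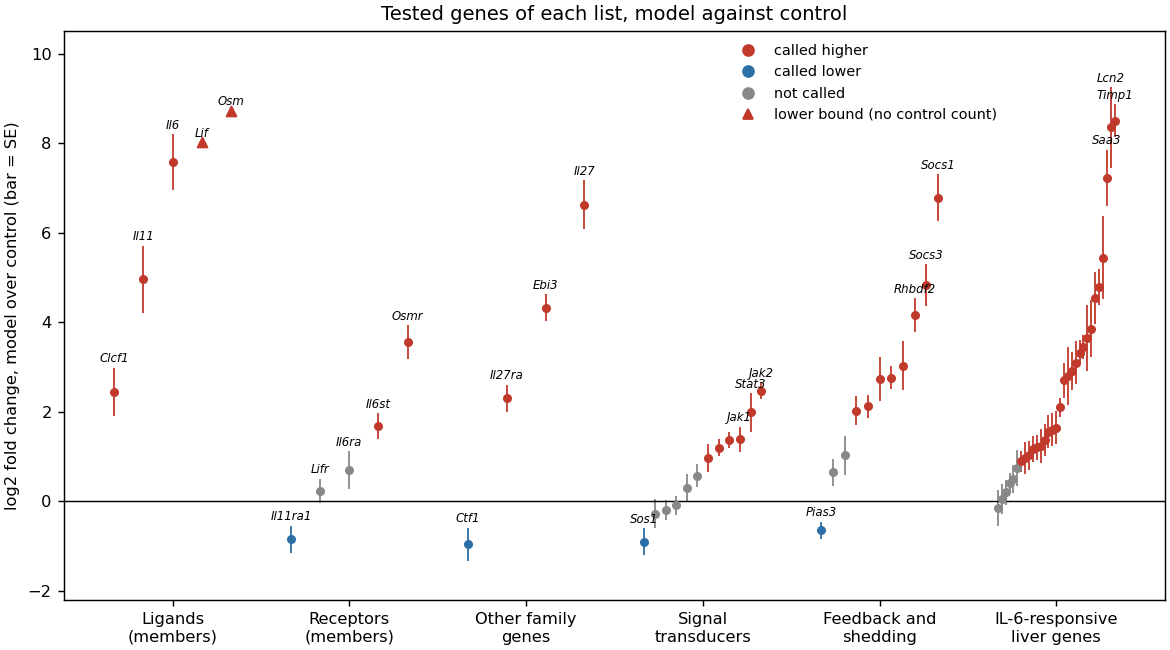
Log2 fold change, model over control, with its SE, for the tested genes of each list; red was called higher, blue lower and grey not called. Triangles are lower bounds for Osm and Lif, which had no control count. All 5 ligands and 25 of 31 IL-6-responsive liver genes are red, while the receptors hold 2 red, 1 blue and 2 grey points.

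The genes whose profile was most like that of each member were found by the root mean square difference of centred log2 CPM over the 14 libraries, among 11904 tested genes. The closest profiles differed by 0.185 to 0.581. For Il6 they were Tnfrsf9, a costimulatory receptor (0.446), and AA467197 (0.483). For Osm they were Cxcl3, a neutrophil chemokine (0.481), and Lilr4b, a leukocyte inhibitory receptor (0.529), and for Lif they were Tarm1, a myeloid receptor (0.422), and Ereg, an EGF receptor ligand (0.475). Il11 was closest to Eda2r and Emp1 (0.501 and 0.515), and Clcf1 to Zc3h7a and Sema3f (0.551 and 0.581). Il6st was closest to Bmpr2, a BMP receptor (0.185), and Ppp1r9b (0.200), and Osmr to Pfkp, a phosphofructokinase (0.383), and Akna (0.389). Lifr was closest to Cyp2c67, a cytochrome P450 (0.211), and C8b, a complement component (0.247). Il11ra1 was closest to Prkra (0.192) and Nr1h3 (0.202), and Il6ra to Trim32 (0.312) and Rad54l2 (0.319). Clcf1 and Il11, the members with the fewest counts, were farthest from their closest gene. Profiles were centred over all 14 libraries, so the difference between the groups enters each distance. The log2 fold changes were 7.42 for Tnfrsf9, 8.53 for AA467197, 10.42 for Cxcl3, 6.29 for Lilr4b, 9.50 for Tarm1 and 7.04 for Ereg. Whether members and their closest genes were expressed in the same cells was not tested.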

How the data were processed

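Polyadenylated RNA of mouse liver was sequenced in 14 libraries (8 model, 6 control) by Illumina NovaSeq, per the labels' protocols. The authors deposited raw read counts per gene, 1 file per library. Reads were aligned with HISAT2 to GRCm39, per the submitters' processing notes. Which program counted the reads, with which annotation and strand setting, is not given in the sources used here. The 5 summary lines that end each file name no gene and hold 27.4% to 45.6% of all entries. They were left out of totals and tests.

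Of 55357 genes, 12915 passed filterByExpr. Genes at or near 0 in the controls passed it only through the model libraries. The groups were compared by edgeR 4.0.16 under R 4.3.3 (TMM factors, robust quasi-likelihood fit, group as the only term, Benjamini-Hochberg adjustment over all genes tested). CPM were computed with TMM-scaled library sizes, log2 CPM with a prior count of 2, and the SE is the log2 fold change over the root of F. Approximate intervals are the log2 fold change plus or minus 1.96 SE. A gene with no control count is given a lower bound against 3 counts over the control group. Ratios used 0.5 added to each count. Exonic lengths came from GENCODE M21 (GRCm38), matched by gene identifier for 99.9% of tested genes. The edgeR script was tested on simulated data. Within groups, no 2 libraries agreed within sampling noise (smallest chi-square per degree of freedom 23.3 over 43 pairs).

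The members and lists were chosen with earlier results of these data known, so their counts beside the shares of all genes are not independent of these data. Besides the members, the text names, in each of 4 lists, up to 3 genes called in each direction with the largest change among those reaching a group mean of 1 CPM, and the 2 genes most like each member, leaving out predicted genes. Alternatives were other scaling factors, DESeq2 1.42.0, no filter, an exonic length offset, the replicate block and leaving out libraries.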

Additional observations from a re-analysis of the deposited data

Results flagged for a closer look

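In 60 groups of values (members, named list genes and receptor ratios, in model and in control), 5 had a library far from the rest of its group. Chance alone flags about 1 in 20 groups. For Il11, control 1 was at 0.385 CPM and the other controls at 0 to 0.0965 CPM. For Il27, control 5 was at 0.0824 CPM, a single count, and the others at 0. For Socs3, control 5 was at 19.4 CPM and the others at 1.93 to 6.47 CPM. For Lcn2, control 5 was at 16.9 CPM and the others at 1.42 to 3.56 CPM. For Rhbdf2, control 6 was at 4.27 CPM and the others at 0.899 to 2.01 CPM. Each of these control values was below the lowest model value of the same gene.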

How the results depend on the processing

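The count of members called higher was 7 under each setting tried with all libraries, 7 without model 3 and model 4, where Il6ra was added and Il11 no longer passed the filter, and 6 without model 7 and model 8, where Il11 again did not pass it. Leaving out 1 library gave 7 or 8 higher and 0 or 1 lower. Members called lower went from 1 to 0 with the replicate block (Il11ra1 log2 fold change -0.58, adjusted p = 0.103; none at an unadjusted p under 0.05) and without model 7 and model 8 (1 at an unadjusted p under 0.05). DESeq2 and edgeR without a filter called 1 lower. Ctf1, Sos1 and Pias3 were each the only lower call of their list. The other family genes called lower went to 0 with the replicate block and without model 7 and model 8, and were 0 or 1 with 1 library left out. The signal transducers called lower went to 0 without model 3 and model 4, and were 0 or 1 with 1 library left out. The feedback and shedding genes called lower went to 0 with no low-count filter and with the replicate block (Pias3 adjusted p = 0.0544). In these cases 1 gene was still lower at an unadjusted p under 0.05, except for the members under the block and the signal transducers without control 6. The ratio Il6ra/Il6st was -0.68 without model 3 and model 4 (adjusted p = 0.0628), -1.13 with a paired sign-flip test over numbers 1 to 6 (adjusted p = 0.0625) and -1.24 to -0.83 with 1 library left out. The other 4 ratios kept their direction and call in every setting tried.

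Labels give both groups the numbers 1 to 6. Between same-numbered libraries, deviations from the group means over all genes tested had correlations of -0.342 to 0.363. Such correlations cannot settle whether these libraries shared more than a number. With the replicate block, 2985 genes were higher and 2390 lower. Library totals in place of TMM factors moved the median log2 fold change of all genes from 0.0099 to -0.232 and the calls from 3437 higher and 2751 lower to 2533 and 3955, and the calls of the 10 members were the same. Low counts kept 8 family genes and A2m from being tested, and Il11 without model 3 and model 4 or without model 7 and model 8.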

Other observations

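The summed level of the 32 IL-6-responsive liver genes was compared with the ligands in each model liver. This sum is weighted to abundant genes. Hp, Hpx, Fga, Fgb and Fgg had means of 5266 to 6171 CPM in model and 2592 to 3321 CPM in control. Their log2 fold changes were 0.89 to 1.23. Timp1, with the largest change, had a model mean of 27.7 CPM. The sum therefore says little of the less abundant genes. Model 8, the highest for Il6 (26.8 CPM), was also the highest for that sum, at 93200 CPM, and model 7 came next at 67950 CPM with Il6 at 15.5 CPM and the highest Lif. Model 3 and model 4, the highest for Osm, were the lowest for the sum, at 25270 and 18890 CPM, although Il6 was at 15.02 and 18.94 CPM there. Model 4 lay within the controls' range of 14920 to 27250 CPM, as did model 3. Model 6, the lowest for Il6 and Osm, was at 42790 CPM. Socs3 was at 133 CPM or more in all 8. These are values of single libraries, and no relation between them was tested.

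Among the controls, control 5 was the highest for the same sum, at 27250 CPM, and for Socs3, at 19.4 CPM. It had no count of Il6, Osm or Lif, 1 count of Il11 and 5 of Clcf1. This does not set it apart, since Osm and Lif had no count in any control and Il6 none in 4 of 6.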
